A study of Mus musculus with 8 samples.

Results

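The miR-204 and miR-211 family was followed in mouse kidney on miRNA arrays through its 2 members, mmu-miR-204-5p and mmu-miR-211-5p (miR-204-5p and miR-211-5p below), out of 1023 mouse miRNA names on the array. The members were chosen by name, as every probe carrying either name, which gave 6 of 2645 probes: 2 probes of 20 spots each for miR-204-5p and 4 probes of 10 spots each for miR-211-5p. Kidney total RNA of CD-1 mice was hybridised to 8 one-colour (Cy3) Agilent arrays, 4 for control mice that received physiological serum and 4 for mice that received tacrolimus. The daily dose of tacrolimus was 1 mg/kg, and treatment lasted 28 days. Tacrolimus is a calcineurin inhibitor used to prevent transplant rejection, and damage to the kidney is one of its known side effects. Whole kidney was used, so every cell type of the organ contributed RNA. The labels give no genotype, age or sex for either group. Each sample had an RNA integrity number of 9, and 0.1 µg of RNA was used. Nothing in the labels ties a replicate to a mouse of its own. The p-values here therefore weigh a difference only against the spread among these samples, and that spread may be technical. The series' title places the comparison within tacrolimus nephrotoxicity, and the question here was whether the family's level differed between treated and control kidneys.

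A miRNA guides Argonaute proteins to messenger RNAs mainly through its seed, the bases near its 5′ end, and miRNAs with the same seed are grouped as a family because they can pair with the same target sites. miR-204 is abundant in retinal pigment epithelium, choroid plexus and kidney, and is known for its part in maintaining epithelial cells, whereas miR-211 is best known from melanocytes and pigmented epithelium of the eye. Both are made from introns of genes of the TRPM ion channel family.

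The mature sequences are shown because they set what the array could tell apart. Capitals mark the seed, bases 2 to 8, and the sequences are those of RefSeq.
miR-204-5p: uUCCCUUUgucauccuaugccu
miR-211-5p: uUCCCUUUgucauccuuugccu
In GRCm38.p6, miR-204-5p lies at chr19:22750610-22750631 on the plus strand, within the span of Trpm3, and miR-211-5p at chr7:64205831-64205852 on the plus strand, within the span of Trpm1. Trpm3 and Trpm1 were the only annotated genes whose span held these hairpins. The seed was the same in both, and 3 of 1679 mature mouse miRNAs in the RefSeq table carry it. The other one, miR-7670-3p, had no probe on the array.

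Both mature members are 22 bases long and differ at 1 base, A17U, counted from 1 at the 5′ end with the base of miR-204-5p first. The members' array probes pair with their miRNA from its 3′ end, and all of them cover that base and reach into the seed. The 20-base probe of each member is shown, with the base that differs in capitals.
miR-204-5p probe: aggcaTaggatgacaaaggg
miR-211-5p probe: aggcaAaggatgacaaaggg
These probes pair with bases 3 to 22 of their miRNA and differ by T6A, counted from the probe's 5′ end with the miR-204-5p probe's base first. For the miR-204-5p probe, the nearest other mature mouse miRNA was miR-211-5p, at 1 mismatch, and the next was miR-3075-3p, at 7. How far each probe also binds the other member was not tested.

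The arrays gave between 147 and 220 detected miRNAs each. A probe was called detected on an array when the scanner software marked a share of 0.5 or more of its kept spots as well above background. No spot was saturated (0). The array tacrolimus 4 stood apart, with the fewest detected miRNAs (147) and an SD of the negative control spots of 20.01, against 4.45 to 5.46 on the other tacrolimus arrays. Among the controls this SD was 10.5 on control 1 and 9.69 on control 3, and between 4.82 and 4.95 on the others. The slide had a row with the 4 control arrays and a row with the 4 tacrolimus arrays, so the treatment and the slide row cannot be told apart. Among 19 listed miRNAs of tubule and other epithelium, miR-192-5p, miR-194-5p and miR-200a-3p were each detected on all 8 arrays. The same list held 4 miRNAs that were detected on no array.

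miR-204-5p was detected on every array, and its level did not pass the test between tacrolimus and control kidneys. On its 20-base probe the mean intensity of kept spots was 248.6, 124.2, 102.2 and 164.9 on control arrays 1 to 4. On tacrolimus arrays 1 to 4 it was 236.9, 219.9, 155.8 and 254.2. Control 1 therefore lay within the range of the tacrolimus arrays, and control 4 above tacrolimus 3. These intensities are on a linear scale and are not adjusted for the overall brightness of an array.

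With signals expressed relative to the 75th percentile of the array's consistently detected probes, the log2 level of miR-204-5p was -3.35, -3.95, -3.81 and -3.40 on control arrays 1 to 4. It was -3.24, -3.37, -3.40 and -3.12 on tacrolimus arrays 1 to 4. Both groups overlapped: control 1 was above tacrolimus 2 and 3, and control 4 was above tacrolimus 3. A pair of controls, 2 and 3, lay below all tacrolimus arrays. The mean was -3.62 ± 0.30 (SD, n = 4) in control and -3.28 ± 0.13 (SD, n = 4) in tacrolimus samples. The difference, tacrolimus minus control, was 0.34 on the log2 scale (SE 0.14, 95% interval 0.02 to 0.66), or 1.27-fold (1.02 to 1.58). In limma, across the 194 miRNAs detected on at least 4 arrays, its unadjusted p was 0.0388 and its Benjamini-Hochberg adjusted p was 0.289. The two-sided exact permutation p for this miRNA alone was 0.143, where 4 against 4 samples allow no p below 0.0286. In whole-kidney RNA, a different number of cells of a type and a different amount of RNA per cell cannot be told apart.

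**Figure D1:**
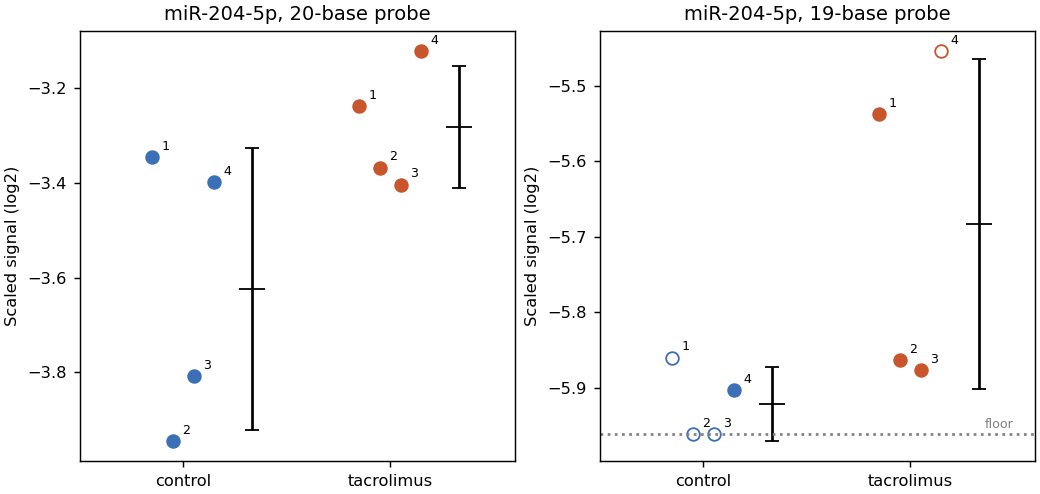
Scaled log2 signal of the 20-base (left) and 19-base (right) probe of miR-204-5p on each array, with array numbers beside the points; filled points are arrays on which the probe was detected, and the bars are mean ± SD (n = 4). On the left, control 1 and control 4 lie among the tacrolimus arrays and control 2 and control 3 lie below them; on the right, 2 control arrays lie at the floor (dotted line).

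The background to this result is that 6 of 194 tested miRNAs, 3.09%, passed an adjusted p of 0.05 in limma, and miR-204-5p was not among them. That count was itself 0 in 14 of 18 alternatives that kept every array or left out control 1 and tacrolimus 4 together, and in 4 of the 8 fits without 1 array, with 1 to 37 and 22 to 32 miRNAs at an unadjusted p under 0.05 in these 2 sets of fits. As reported, 30 of 194, or 15.5%, had an unadjusted p under 0.05, with 10.8% higher with tacrolimus, miR-204-5p included, and 4.64% lower. The groups did not overlap for 10.3% of tested miRNAs, and miR-204-5p was not one of these. The median difference over all 194 was 0.04, with 115 of them above 0 and the middle part, from the lower to the upper quartile, between -0.06 and 0.13. A larger difference than that of miR-204-5p was found for 15 of the 194. Its residual SD was 0.23 on the log2 scale, against a median of 0.13 over all tested miRNAs. The spread came mostly from the controls: the control SD of miR-204-5p was exceeded by 28 of 194 miRNAs in their own control samples, and its tacrolimus SD by 87 of 194 in theirs.

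Within each group, the SD between arrays was larger than the standard error of an array's mean over its spots. Between 17 and 20 spots of the 20-base probe were kept per array, and all 149 kept spots over the 8 arrays were well above background. The coefficient of variation among the kept spots of an array was 5.49% to 11.3%, which puts the standard error of an array's mean at 0.018 to 0.037 on the log2 scale. The control arrays spanned -3.95 to -3.35 on that scale, and the SD between arrays was 0.30 in control and 0.13 in tacrolimus samples. Spots that the software had marked as non-uniform or as outliers were left out, and 1 of these reached 676.4 on control 3, where the kept spots averaged 102.2. With the marked spots kept, the difference was 0.20 and the adjusted p in limma 0.633.

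**Figure D2:**
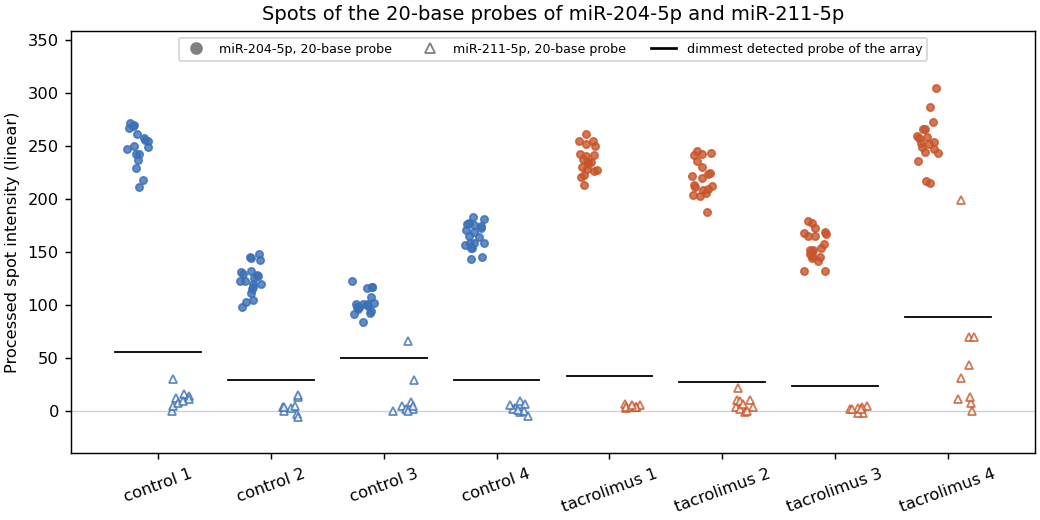
Processed intensity (linear scale) of every kept spot of the 20-base probes of miR-204-5p (filled circles) and miR-211-5p (open triangles) on each array, in blue for control and orange for tacrolimus; the black line is the dimmest detected probe of that array. Spots of miR-204-5p lie above the line on all 8 arrays, and the mean of the miR-211-5p spots lies below it on all 8.

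Each column of the slide held 1 array of each group. Within columns 1 to 4 the tacrolimus array exceeded the control array in miR-204-5p by 0.11, 0.58, 0.40 and 0.28 on the log2 scale. All 4 differences were above 0, and the smallest came from the column with control 1. Leaving out the array tacrolimus 4 lowered the difference between groups to 0.18 (adjusted p in limma 0.465), and leaving out control 1 raised it to 0.43 (adjusted p 0.146). With both of these arrays left out it was 0.24 (adjusted p 0.302).

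The difference in miR-204-5p was above 0 in each of 26 alternative settings and passed an adjusted p of 0.05 in none of them. Settings that changed only the detection filter, the floor or the limma model left the difference at 0.34. They could not alter it, so they do not test its direction. It ranged from 0.17 with a model-based background correction (normexp, offset 50) to 0.51 in the authors' deposited value table, which is not scaled between arrays. Without scaling the median of all miRNAs was itself 0.19 above 0 and miR-204-5p stood 0.31 above that median, close to the 0.30 by which it stood above the median as reported. Across the alternatives the adjusted p ran from 0.121 to 0.996, and the unadjusted p was under 0.05 in 11 of the 26.

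**Figure D3:**
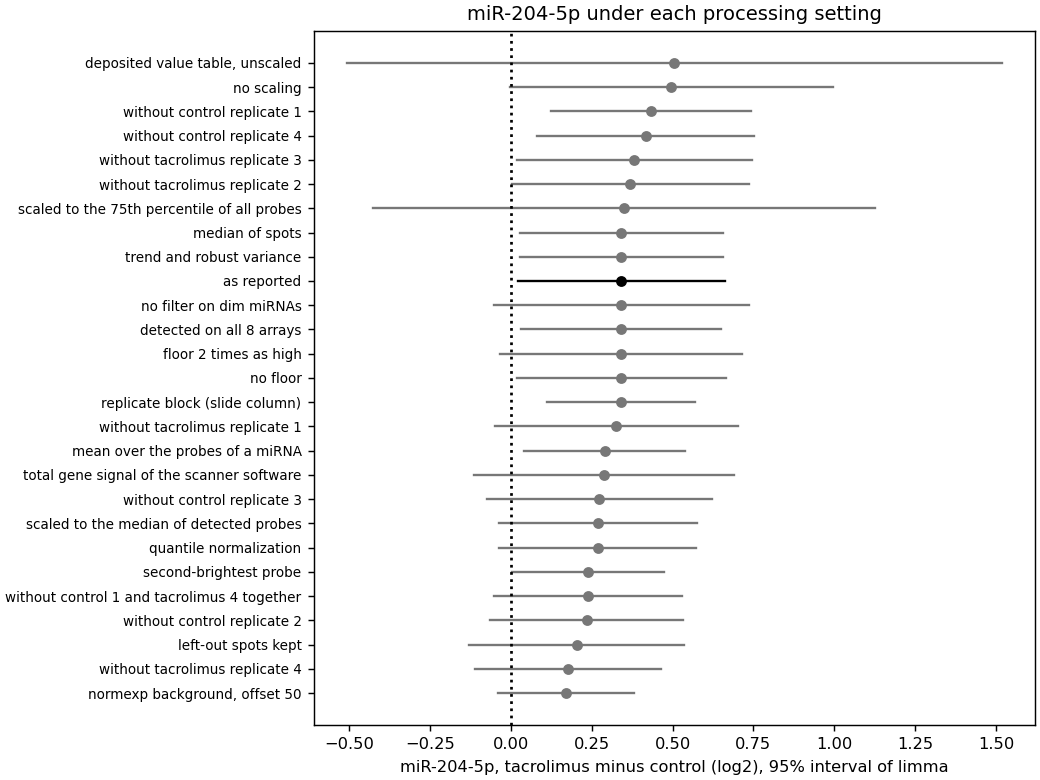
Difference in miR-204-5p, tacrolimus minus control on the log2 scale, with the 95% interval from limma, under the reported setting (black) and each alternative (grey). Every point lies above 0, from 0.17 with normexp to 0.51 in the deposited table.

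The 19-base probe, which pairs with bases 4 to 22 of miR-204-5p, was near the limit of detection. It was detected on 1 control array, control 4, and on 3 tacrolimus arrays, 1 to 3. Its mean intensity was 43.5, 24.3, 20.7 and 29.1 on control arrays 1 to 4, and 48.1, 39.0, 28.1 and 50.5 on tacrolimus arrays 1 to 4. On tacrolimus 4 none of 18 kept spots was well above background, and on control 1 it was 1 of 17, although these arrays had 2 of the 3 highest means. Scaled log2 signals were -5.86, -5.96, -5.96 and -5.90 in controls, of which 2 were at the floor of -5.96, and -5.54, -5.86, -5.88 and -5.45 in tacrolimus samples. It met the filter of 4 arrays through 3 tacrolimus arrays and 1 control array, the group where it was brighter, so its p is not support for a difference. In a limma fit over the 357 probes detected on at least 4 arrays, the difference of this probe was 0.24 (SE 0.10, adjusted p = 0.329) and that of the 20-base probe was 0.34 (SE 0.14, adjusted p = 0.285). In that fit 14.8% of probes had an unadjusted p under 0.05, both miR-204-5p probes included, and 0% passed after adjustment. The groups did not overlap for 8.68% of these probes, and both miR-204-5p probes overlapped. Over the 17 alternatives that tested the 19-base probe, its difference was above 0 in 15 and below 0 in 1, normexp, at -0.037. Raising the floor 2 times put every array's value of this probe at the floor. The 0 found there was fixed in advance and does not test the direction. Without tacrolimus 4, where the probe was not detected, its difference was 0.09.

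miR-211-5p was not well above background in either group. None of its 4 probes, of 19, 20, 21 and 22 bases, was detected on any array (0 of 8). Of 290 kept spots 7 were well above background, 3 of 145 on control arrays and 4 of 145 on tacrolimus arrays. On control arrays 1 to 4 the brightest of the 4 probe means was 28.0, 11.6, 14.05 and 6.59. On tacrolimus arrays 1 to 4 it was 7.17, 12.8, 4.84 and 49.4. Each of these was below the dimmest detected probe of the same array, which ranged from 23.4 on tacrolimus 3 to 89.0 on tacrolimus 4. The highest, on tacrolimus 4, came from the 20-base probe, whose spots there had an SD of 61.9. After scaling, 31 of the 32 probe values of miR-211-5p were at the floor, and that probe on tacrolimus 4 was the exception, at -5.48.

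For this reason no fold change and no test was made for miR-211-5p, and the difference in response between both members was not tested. The authors' deposited table lists it at 0.1, the value given there to undetected miRNAs, on all 8 arrays. miR-211-5p was also detected on 0 arrays with the marked spots kept, and on 0 by the software's own detection call for the gene. The other settings used the same marks for detection, so they could not have raised this count. A difference between groups in this member was therefore not detectable at the signal of these probes.

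The other arms of the hairpins were measured as well, since each is cut from the same precursor as its member. Their sequences show that they do not share the family seed, again in capitals at bases 2 to 8.
miR-204-3p: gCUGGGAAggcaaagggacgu
miR-211-3p: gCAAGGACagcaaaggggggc
In GRCm38.p6 they lie at chr19:22750649-22750669 and chr7:64205868-64205888, both on the plus strand. miR-204-3p, on probes of 14 and 15 bases, was detected on no array (0 of 8). Its mean intensity was below 0 after background subtraction on all 8 arrays.

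miR-211-3p was detected on 4 control and 3 tacrolimus arrays, whereas miR-211-5p was detected on none. Its 13-base probe, the brighter of 2, had scaled log2 signals of -4.03, -4.48, -4.77 and -4.68 on control arrays 1 to 4. They were -4.35, -3.83, -4.37 and -4.65 on tacrolimus arrays 1 to 4. Both groups overlapped over most of their range. The difference was 0.19 (SE 0.20, 95% interval -0.26 to 0.64), with an adjusted p of 0.657 in limma. Within slide columns 1 to 4 it was -0.32, 0.65, 0.40 and 0.03. Over the alternatives it ran from 0.0081 with normexp to 0.34 without scaling.

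The probes of miR-211-3p are short, and their sequences are shown because they set how specific this signal can be.
12-base probe: gcccccctttgc
13-base probe: gcccccctttgct
They pair with bases 10 to 21 and 9 to 21 of miR-211-3p. The mature miRNA nearest to the 12-base probe after miR-211-3p was miR-298-5p, at 2 mismatches, and 8 others stood at 3. For the 13-base probe the nearest 3 stood at 3 mismatches, miR-298-5p among them. Whether other RNAs bind these probes was not tested.

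Other miRNAs of kidney tubule and other epithelium were set beside miR-204-5p in a list of 19 that held the miR-192, miR-194, miR-200 and miR-30 families. Of these, 15 were tested, and miR-194-2-3p, miR-215-5p, miR-205-5p and miR-375-3p were detected on no array. None of the 15 (0) passed the test in limma, where 3.09% of all miRNAs did, and none (0) had an unadjusted p under 0.05, where 15.5% did. Their differences ran from -0.09 to 0.16 with a median of 0.06, against a median of 0.04 over all tested miRNAs, and 10 of 15 were above 0. The largest were those of miR-192-3p at 0.16 (adjusted p = 0.440) and miR-194-5p at 0.14 (adjusted p = 0.442), which both come from clusters abundant in proximal tubule. No miRNA of the list (0 of 15) had a difference above that of miR-204-5p. Few of all tested miRNAs did (15 of 194), so this count does not set the list apart. The list's median was -0.01 when arrays were scaled to the median of detected probes and -0.07 without tacrolimus 4, while miR-204-5p was at 0.27 and 0.18.

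**Figure D4:**
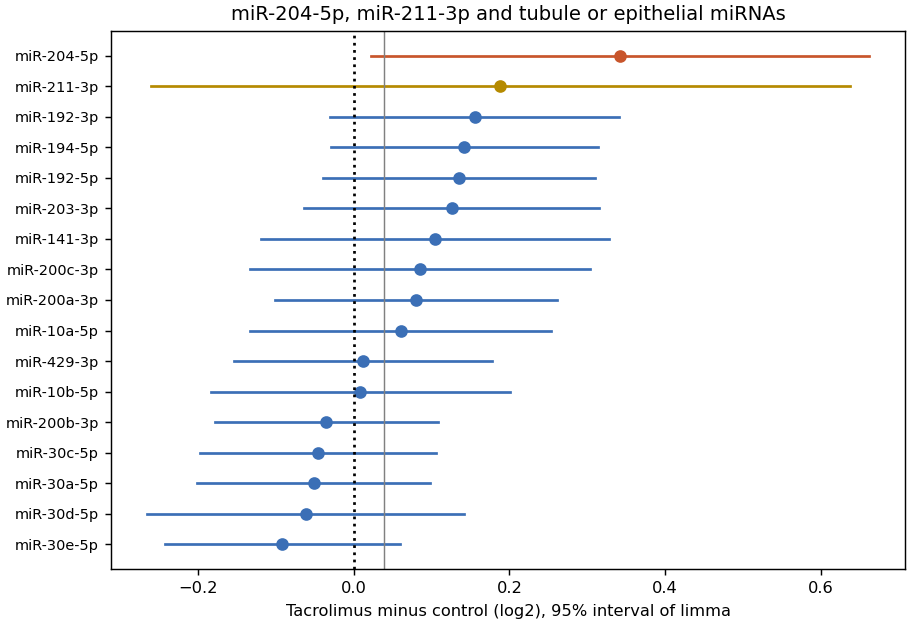
Difference, tacrolimus minus control on the log2 scale, with 95% intervals from limma, for miR-204-5p (orange), miR-211-3p (ochre) and the 15 tested miRNAs of the epithelial list (blue); the grey line is the median of all 194 tested miRNAs. The interval of miR-204-5p lies above 0, from 0.02 to 0.66, and all 15 blue intervals include 0. The intervals are not adjusted for the number of miRNAs tested, and the adjusted p of miR-204-5p in limma was 0.289.

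Markers of other cell types were read on the same arrays. All 9 listed leukocyte miRNAs were tested and had differences above 0, with a median of 0.34 against 0.04 over all tested miRNAs; with normexp 6 of 9 were above 0 and the median was 0.19, and without control 1 the median was 0.55. None (0) passed the test, and 4 of 9 had an unadjusted p under 0.05, all higher, where 10.8% of all tested miRNAs were higher at that level. Their summed scaled signal was 0.712 to 0.994 on control arrays and 0.976 to 1.34 on tacrolimus arrays. Among them miR-223-3p, a myeloid miRNA, had a difference of 0.61 (adjusted p = 0.0911 in limma) and miR-142a-3p, common to blood cells, one of 0.64 (adjusted p = 0.191).

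Of 4 erythrocyte miRNAs 3 were tested, with a median difference of -0.67. miR-451a, the most erythroid of these, was at -0.67 (adjusted p = 0.273 in limma), as was miR-486a-5p (adjusted p = 0.273 in limma). However, miR-486a-5p was near the floor, detected on 2 control and 3 tacrolimus arrays. Its difference ran from -2.01 to -0.19 over the alternatives. All 3 tested erythrocyte miRNAs had an unadjusted p under 0.05, where 4.64% of all tested miRNAs were lower at that level. Without control 1 the median was -0.45, and without control 4 it was -0.94 and 2 of the 3 passed the test. Their summed signal was 2.09 to 5.81 on control arrays and 1.88 to 2.50 on tacrolimus arrays. Of 7 miRNAs of liver and striated muscle none (0) could be tested, and the liver miRNA miR-122-5p was detected on no array. The part of other cell types in the difference of miR-204-5p was not tested.

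miRNAs of the eye and nervous system, the other known sites of the family, were mostly below detection. Of 9 listed, 3 were tested, with a median difference of -0.06 and none (0) past the threshold, and 4 were detected on no array: miR-183-5p, miR-124-3p, miR-9-5p and miR-184-3p. The 3 tested were each detected on all 8 arrays: miR-7a-5p at -0.07, miR-128-3p at -0.06 and miR-96-5p at 0.05.

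The miRNAs whose scaled level across the 8 arrays was most like that of miR-204-5p were miR-27a-3p (Pearson r = 0.875), miR-195a-5p (r = 0.867) and miR-362-3p (r = 0.817), among 193 compared. The Spearman coefficients were 0.881, 0.857 and 0.833. The median r over the 193 was 0.194, and for miR-211-3p it was 0.267. These coefficients describe 8 arrays that share a slide, 2 groups and 1 scaling step, so they were given no p. On miR-195a-5p, a member of the miR-15 family, control 2 and control 3 were again the lowest, at -0.42 each, and the difference between groups was 0.26 (adjusted p = 0.244 in limma). On miR-27a-3p the same arrays were at 0.06 and 0.16, with the other arrays between 0.17 and 0.30. When each group's mean was removed first, the nearest were miR-30e-3p (r = 0.911), miR-126a-5p, an endothelial miRNA (r = 0.807), and miR-677-3p (r = 0.785), with a median of 0.0929 over all.

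The deposited value of miR-204-5p did not hold the same quantity on every array. In the authors' deposited table it was 112.9, 57.8, 28.9 and 74.7 on control arrays 1 to 4, and 110.5, 100.9, 71.5 and 71.9 on tacrolimus arrays 1 to 4. On 6 arrays this value was the sum of the totals of both probes, and on control 3 and tacrolimus 4 it was the total of the 20-base probe alone. On the same 2 arrays the software's total per spot was 1.41% of the mean of kept spots, as the median over 252 probes, against 1.93% to 1.95% on the other 6. Tacrolimus 4, the array with the highest mean spot intensity of miR-204-5p (254.2), therefore had a deposited value below that of control 4, where the spots averaged 164.9.

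**Figure D5:**
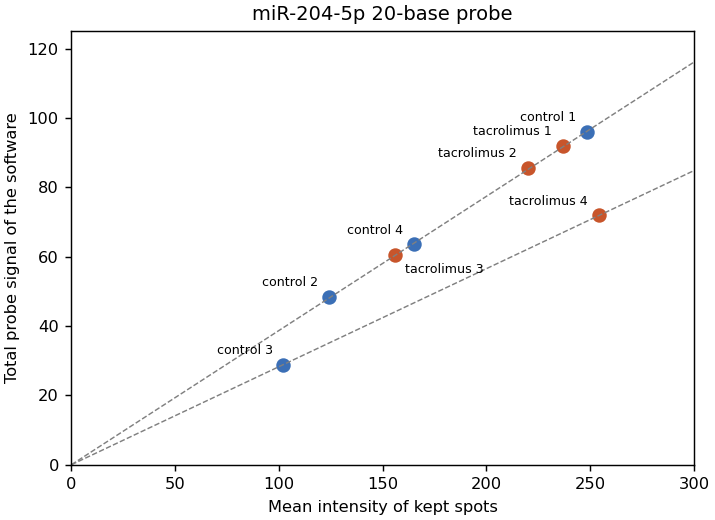
Total probe signal given by the scanner software against the mean intensity of kept spots for the 20-base probe of miR-204-5p, 1 point per array, in blue for control and orange for tacrolimus; dashed lines mark the lowest and the median share per spot over the arrays. Control 3 and tacrolimus 4 lie on the lower line and the other 6 arrays on or next to the upper one.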

How the data were processed

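The authors deposited the scanner output of 8 arrays, made by Agilent's Feature Extraction (version 10.7.3.1, per the file headers). It holds linear spot intensities, background-subtracted by that software and not scaled between arrays. In 100% of cells (tolerance 1e-06) their deposited value table held the total signal per gene that the software wrote, so it is likewise an unscaled linear intensity, with a median of 0.1 in each column and undetected miRNAs at 0.1. The submitters' processing notes name limma; the sources used here give neither its role nor how the miRNA was labelled. Array coordinates were not used.

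Spots with a software mark for non-uniformity or population outlier (7.36% to 11.2% per array) were dropped and the others averaged per probe. Signals were divided by the array's 75th percentile over 252 probes, those detected on every array, floored at -5.96 (log2) and log2-transformed. The brightest probe represented a miRNA, and 194 of 1023 names, detected on at least 4 arrays, were tested in limma 3.58.1 (R 4.3.3; lmFit and eBayes, two-sided, Benjamini-Hochberg over all 194, 9.17 degrees of freedom). Fits were tested on simulated data only as a check of the code. The simulated differences were all larger than that of miR-204-5p, so the check does not show whether one of its size would be found. With 4 arrays per group, array number limits the precision. Named miRNAs were the members, the other arms, the 2 tested of each list with the smallest unadjusted p, and the 3 most correlated with miR-204-5p in level and in deviation from the group mean; other list markers were named for their detection, after it was seen. The members and lists were chosen with earlier results of these data known.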

Additional observations from a re-analysis of the deposited data

Results flagged for a closer look

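Of 34 groups of 4 arrays examined, over the members' probes and the miRNAs named, 1 held an array far from the others, and chance alone marks about 1 in 20 such groups. It was miR-451a, an erythrocyte miRNA, among the tacrolimus arrays, where tacrolimus 4 differed from the mean of the other 3 by -0.39 on the log2 scale. Neither probe of miR-204-5p had such an array in either group. The probes of miR-211-5p were not examined. On its 20-base probe 3 tacrolimus arrays were at the floor, and tacrolimus 4 was at -5.48.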

How the results depend on the processing

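miR-204-5p kept its direction under all 26 alternatives and passed the adjusted threshold under none. Those that changed only the filter, the floor or the limma model could not alter its difference. With 1 array left out in turn its difference ran from 0.18 to 0.43. The numbers that name the replicates were not taken as pairing the samples, since the labels state no shared batch. Same-numbered arrays deviated together with correlations of 0.109, 0.140, 0.112 and 0.0946. Between arrays of different number the correlations ran from -0.324 to 0.386, so these values neither show nor exclude a pairing. With the replicate number, which is also the slide column, as a block, miR-204-5p was at 0.34 with an unadjusted p of 0.00994 and an adjusted p of 0.121 in limma, and 0 miRNAs were called. The count of called miRNAs, 6 as reported, was 8 with median scaling, 7 with quantile normalization, 5 with detection required on all 8 arrays, 1 with normexp and 0 without scaling, without the filter, without a floor, with the floor raised 2 times, with the 75th percentile taken over all probes, with marked spots kept, the median of spots, the mean over probes, the second-brightest probe, the software's total gene signal, the deposited table, trend and robust variance, or without control 1 and tacrolimus 4 together; without 1 array each it ran from 0 to 7 (7 without tacrolimus 3, and 0, 1 or 2 without any of the other 7), with 22 to 32 at an unadjusted p under 0.05. The 19-base probe of miR-204-5p was at -0.037 with normexp and at 0 with the higher floor. The higher floor lay above this probe's signal on every array, so that 0 was fixed in advance. The cause of the change of sign with normexp was not tested.

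Of 382 values for the 15 other miRNAs named, 361 kept their direction and their side of the threshold, 2 passed it in the same direction and 19 changed sign. With normexp, miR-126a-5p was at -0.0402 and miR-192-3p at -0.047. With median scaling and quantile normalization, miR-126a-5p was at -0.0093 and -0.045. With no scaling, miR-128-3p was at 0.093, miR-30e-3p at 0.12 and miR-7a-5p at 0.085, and in the deposited table the last 2 were at 0.13 and 0.0897. With marked spots kept, miR-192-3p was at -0.035. Without control 1 and tacrolimus 4, miR-126a-5p, miR-192-3p, miR-27a-3p, miR-194-5p and miR-362-3p were at -0.0405, -0.0400, -0.0405, -0.048 and -0.026. With 1 array left out, miR-126a-5p ran from -0.053 to 0.106, miR-27a-3p down to -0.036 and miR-30e-3p from -0.156 to 0.0013, while miR-223-3p passed at 0.74 without tacrolimus 3 (adjusted p 0.0323 in limma) and miR-486a-5p at -0.98 without control 4 (adjusted p 0.0408). For miR-211-5p the signal over background allows no value.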
